A study of Rattus norvegicus with 6 samples.

Results

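The genes described here build the contractile actin network of non-muscle cells and its anchors to the matrix: Actb, Actg1, Myh9, Myh10, Flna, Vcl, Zyx, Actn1, Actn4 and Tln1. They were chosen by name, and all 10 were found among the 22085 genes of the deposited table and passed the filter on low counts that left 15776 genes for testing. The RNA came from cultured rat cells of the amniotic fluid, which had been drawn on embryonic day 18.5 and whose cells were harvested at passage 4. The 3 control libraries stem from control pregnancies, and the 3 preeclampsia libraries from pregnant rats that model preeclampsia, in which the mother develops high blood pressure during pregnancy. Both groups were grown in the same serum-containing medium. The rat strain, the way the model was made, and whether a library holds the cells of 1 animal or of several are not given in the sources used here, so every p-value measures the spread between these libraries. The labels call the cells mesenchymal stem cells.

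In non-muscle cells, filaments of actin are pulled by bipolar filaments of nonmuscle myosin II, and cross-linkers such as alpha-actinin and filamin arrange them into bundles and meshes called stress fibres and cortex. Where a bundle ends at the membrane, talin couples it to the cytoplasmic tails of integrins, which bind the extracellular matrix outside, and vinculin and zyxin join as the site bears tension. Cultured fibroblast-like cells are known for abundant stress fibres and focal adhesions. Several genes of the network are known targets of serum response factor (SRF) and its actin-sensing coactivators, and of the YAP and TEAD factors.

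Because genes of the network are known to carry sites for those factors, the promoters were read first. RefSeq's GRCr8 promoter table held 10 windows for 8 of the 10 genes, each of 300 bases, from 250 before to 50 after a transcript start. Actb and Actn4 had no window, so their promoters were not searched. Motifs were searched on both strands. The CArG box, the element that SRF binds, was found in 1 of the 10 windows, that of Actg1, and in 1.64% of all 33469 windows. The TEAD element CATTCC, or its reverse complement GGAATG, was found in 4 of the 10, against 14.2% of all windows. The 4 were those of Flna, Vcl and Myh10 and the first of 2 windows of Zyx. The GC box GGGCGG was in 8 of the 10, both windows of Zyx among them, against 33.1% of all. The other motifs searched, CCAAT and TATAAA, were in 6 and 1 of the 10, against 37.5% and 14.2% of all.  The stretches around the CArG box and the TEAD elements are shown because these are the factors' sites discussed for this gene group; capitals mark the element, and each reads 5′ to 3′ on the gene's strand.
Actg1, CArG box, chr10:106121002-106121071, minus strand: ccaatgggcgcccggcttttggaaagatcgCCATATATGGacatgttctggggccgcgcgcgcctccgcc
Flna, TEAD element, chrX:157182382-157182447, minus strand: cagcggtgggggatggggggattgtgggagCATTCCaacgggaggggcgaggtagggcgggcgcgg
Vcl, TEAD element, chr15:3404932-3404997, minus strand: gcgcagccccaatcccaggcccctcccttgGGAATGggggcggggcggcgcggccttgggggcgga
Myh10, TEAD element, chr10:53893116-53893181, plus strand: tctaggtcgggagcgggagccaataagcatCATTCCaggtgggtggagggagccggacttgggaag
Zyx, TEAD element, chr4:72203765-72203830, plus strand: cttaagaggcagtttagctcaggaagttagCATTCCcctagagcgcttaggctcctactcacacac
A match is a description of these letters and not a measured binding site. Counted from the transcript start, the CArG box of Actg1 begins at position -90, and the TEAD elements of Flna, Myh10, Vcl and Zyx begin at -74, -118, -167 and -205.

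Total counts ranged from 48402185 to 59193961 per library. The cultures were checked against marker lists, given as the list's summed CPM, counts scaled to a common library size. The 8 mesenchymal markers, among them Vim, Thy1 and Col1a1, summed to 19824 to 29045 CPM in the control libraries and 27710 to 40837 in the preeclampsia libraries. Of the 8, 7 had an estimate above 0 (median log2 fold change, preeclampsia over control, 0.48), and in 4 the groups did not overlap, against 6.15% of all tested genes in that direction. DESeq2 called Pdgfra, Lum and Dcn higher in the preeclampsia libraries, as it did 0.725% of all genes: Lum, a matrix proteoglycan, was at 40.75 to 111 FPKM in the control and 226 to 595 in the preeclampsia libraries, and Dcn, another, at 7.19 to 63.9 and 132 to 241. The epithelial markers, with 3 of 8 tested, summed to 50.2 to 187 CPM and 44.9 to 266 CPM. The defining epithelial gene Epcam was at or under 0.1 FPKM in every library, but the keratin gene Krt7 was at 12.4 to 80.7 FPKM. In control libraries 1, 2 and 3, Krt8 stood at 1.12, 37.4 and 8.41 FPKM and Krt18 at 0.48, 17.15 and 4.38. In the preeclampsia libraries they were at or under 1.35 and 0.20 FPKM. DESeq2 called both lower, although the groups overlapped in Krt8, where control library 1 was as low as the preeclampsia libraries. The mesothelial markers, with 5 of 6 tested, summed to 13.1 to 43.7 CPM in the control and 97.6 to 177 in the preeclampsia libraries. The list as such was not higher: only Msln had an estimate above 0, and 4 were lower. The median log2 fold change was -0.55, and -0.95 without control library 1. Among them Msln, encoding mesothelin, was at 1.06 to 2.03 and at 11.8 to 20.9 FPKM, called higher by DESeq2, while Bnc1 was called lower. The endothelial markers summed to at most 21.5 CPM, with Pecam1 at or under 0.03 FPKM. The 12 macrophage and leukocyte markers summed to 35.5 to 265 CPM in the control libraries and 44.6 to 964 in the preeclampsia libraries. All 12 had an estimate above 0 (median log2 fold change 1.26), but the groups overlapped in each and DESeq2 called 0. The sum was low in control library 3 (35.5) and preeclampsia library 1 (44.6) and highest in preeclampsia libraries 2 and 3 (964 and 503). C1qa was at 0 in control library 3. The 10 proliferation markers were highest in preeclampsia library 1, at 1339 CPM against 269 to 726 in the other 5. In RNA from bulk cultures, fewer cells of a type and less RNA per cell cannot be told apart. These marker levels moved with the groups or with single libraries, and their part in the results below was not tested.

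The 10 genes were among the most abundant messenger RNAs of these cells. Together they took 2.37% to 3.67% of all counts of a library, and each had a mean above 100 FPKM (the deposited unit, which divides fragments by transcript length and library size), a level that 788 tested genes reached. By the mean over the 6 libraries the order was Actb, Myh9, Actg1, Actn1, Flna, Actn4, Vcl, Myh10, Zyx and Tln1, from 5422 FPKM for Actb, which ranked 3 among all genes, to 153 FPKM for Tln1, which ranked 495. Only Actb and Myh9, and Myh9 and Actg1, were neighbours in this order whose ranges over the libraries did not overlap; the other 7 neighbouring pairs overlapped, although in 6 of the 9 pairs the upper gene was higher within every library. The order rests on the length behind the FPKM values. Counts and FPKM implied 1413 nucleotides for Myh9 and 1408 for Actn1, but 6184 for the paralog Myh10, 3008 for the paralog Actn4 and 8778 for Flna, so the FPKM of Myh9 and Actn1 are per a short length and their levels may stand too high against the other genes. Comparisons of a gene with itself across libraries do not depend on this length.

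**Figure D1:**
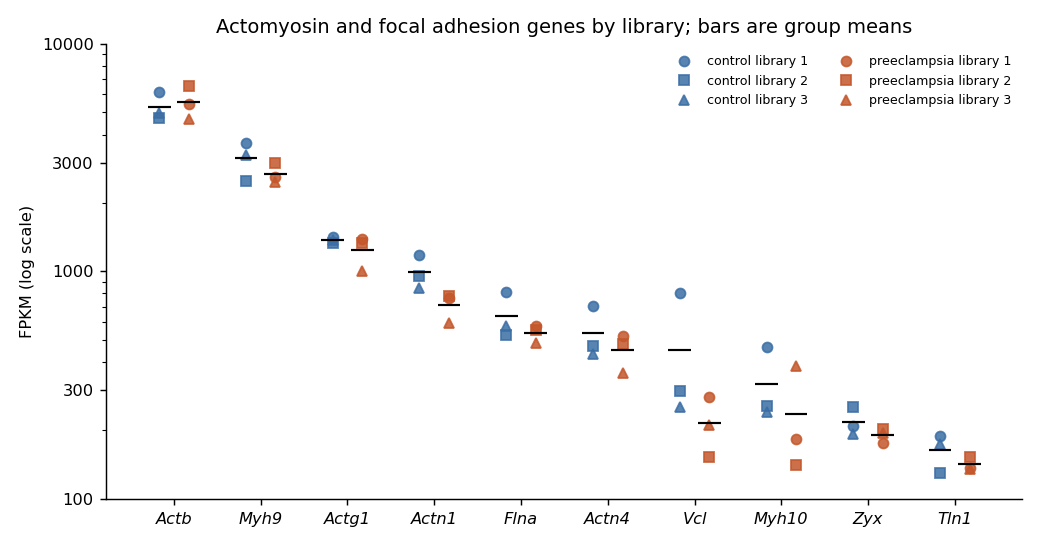
FPKM on a log axis of the 10 genes in each library, control in blue and preeclampsia in orange, with horizontal bars at the group means. Control library 1 (blue circles) is the highest of the 6 in 8 genes, and only in Actn1 do the groups not overlap.

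The main comparison asked whether these genes differ between cultures of the preeclampsia and of the control pregnancies. No gene of the group passed the test: edgeR's quasi-likelihood test gave adjusted p-values from 0.569 to 0.933, with adjustment over all 15776 genes, of which 0% were called. DESeq2 called 0 of the 10 as well, against 1.71% of all genes it tested. None had an unadjusted p under 0.05 in edgeR, as 9.19% of all tested genes did. In 9 of the 10 the estimate was below 0, with a median log2 fold change (preeclampsia over control) of -0.22, while 48.3% of all tested genes were below 0 and their median was 0.014. The median of the 10 depended on 1 library: without control library 1 it was -0.038, with 7 of 10 below 0, and the median of all genes was 0.016.

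Of the cytoplasmic actins, the subunits of the filaments themselves, Actb (chromosome 12, 11663112 to 11666697 in the table's coordinates) had 6146, 4723.5 and 4996 FPKM in the control libraries, numbered 1 to 3 and always given in that order, against 5433, 6542 and 4693 in the preeclampsia libraries. The groups overlapped fully, with preeclampsia library 2 the highest and preeclampsia library 3 the lowest of the 6. The log2 fold change was 0.088 (SE 0.22, 95% interval -0.44 to 0.61, edgeR adjusted p = 0.933), and -0.071 without preeclampsia library 2. Actg1 (chromosome 10, 105619738 to 105622587) stood at 1422, 1339 and 1382 FPKM in the control libraries and at 1389, 1330.25 and 1002 in the preeclampsia libraries. Its control libraries lay close together, with an SD of 41.7 around 1381 FPKM, and preeclampsia library 3 alone stood below the other 5. The log2 fold change was -0.14 (SE 0.17, interval -0.55 to 0.28, edgeR adjusted p = 0.865), and -0.0073 without preeclampsia library 3. The coding sequences of the actins are alike and both genes have processed pseudogenes, so reads could have been shared between copies.

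The heavy chains of nonmuscle myosin II, the motors of the network, varied to unequal degrees. Myh9, which encodes the heavy chain of myosin IIA (chromosome 7, 109343718 to 109424457), stood at 3682, 2497 and 3235 FPKM in the control libraries and at 2602, 3001 and 2475 in the preeclampsia libraries. The groups overlapped, since control library 2 lay among the preeclampsia libraries, and the log2 fold change was -0.20 (SE 0.21, interval -0.71 to 0.30, edgeR adjusted p = 0.836), and -0.034 without control library 1. Myh10, which encodes the chain of myosin IIB (chromosome 10, 53393901 to 53525174), stood at 464, 257 and 241 FPKM in the control libraries and at 183, 141 and 383 in the preeclampsia libraries. Control library 1 and preeclampsia library 3 were both high, so each group had a single library far from its other members. The log2 fold change was -0.44 (SE 0.46, interval -1.55 to 0.68, edgeR adjusted p = 0.839), and -0.025 without control library 1.

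The alpha-actinins, antiparallel dimers that bundle actin filaments and lie along stress fibres and at adhesions, included the only gene of the group whose libraries separated. Actn1 (chromosome 6, 98998553 to 99093334) stood at 1183, 952 and 847 FPKM in the control libraries and at 768, 782 and 596 in the preeclampsia libraries. Every control library lay above every preeclampsia library, as in 8.32% of all tested genes in that direction, so 1 gene of 10 is near the background. The log2 fold change was -0.46 (SE 0.20, interval -0.95 to 0.029), which did not pass (edgeR unadjusted p = 0.0609, adjusted p = 0.569), and it was -0.28 without control library 1. Actn4 (chromosome 1, 84182783 to 84251867) stood at 703, 468 and 433 FPKM in the control libraries and at 519, 481 and 359 in the preeclampsia libraries. Control library 1 was alone above the rest, control libraries 2 and 3 lay among the preeclampsia libraries, and the log2 fold change was -0.23 (SE 0.26, interval -0.86 to 0.40, edgeR adjusted p = 0.848). Without control library 1 it was 0.057.

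Flna, the filamin that cross-links filaments into meshes and binds integrin tails (chromosome X, 152007758 to 152034266), showed the same layout. It stood at 815, 527 and 578 FPKM in the control libraries and at 576, 552 and 485 in the preeclampsia libraries. Control library 1 was high and the other 5 lay between 485 and 578. The log2 fold change was -0.24 (SE 0.23, interval -0.79 to 0.31, edgeR adjusted p = 0.818), and 0.014 without control library 1.

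Among the adhesion proteins, Vcl, encoding vinculin, which binds talin and actin (chromosome 15, 3265776 to 3355586), had the lowest estimate of the 10. It stood at 806, 298 and 254 FPKM in the control libraries and at 279.9, 152 and 212 in the preeclampsia libraries. Control library 1 was far above the other 5, and preeclampsia library 1 lay between control libraries 2 and 3, so the groups overlapped. The log2 fold change was -1.09 (SE 0.51, interval -2.32 to 0.14, edgeR adjusted p = 0.594), and -0.32 (SE 0.26, edgeR adjusted p = 0.902) without control library 1. The SD of its log2 FPKM over the 6 libraries, 0.81, was above that of 93.7% of the genes with a mean of at least 100 FPKM, whose median SD was 0.24.

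In Tln1 and Zyx the SD of log2 FPKM over the 6 libraries was 0.22 and 0.17, where the genes with a mean of at least 100 FPKM had a median of 0.24. Actb (0.20), Actg1 (0.19) and Myh9 (0.23) had a similar spread. Tln1, encoding talin, which binds and activates integrins (chromosome 5, 57787670 to 57817659), stood at 189, 129.7 and 174 FPKM in the control libraries and at 137, 152 and 136 in the preeclampsia libraries, with control library 2 the lowest of all. Zyx, encoding zyxin, a LIM-domain protein of adhesions and stress fibres (chromosome 4, 71236767 to 71246393), stood at 209.9, 252 and 193 FPKM in the control libraries and at 177, 203 and 195 in the preeclampsia libraries. In both genes the groups overlapped. The log2 fold changes were -0.19 for Tln1 (SE 0.19, interval -0.65 to 0.26, edgeR adjusted p = 0.824) and -0.17 for Zyx (SE 0.15, interval -0.54 to 0.20, edgeR adjusted p = 0.810). Tln1 was at -0.042 without control library 1 and -0.34 without control library 2, and Zyx at -0.060 without control library 2. Zyx was the 1 member besides Actb whose highest library was not control library 1, and unlike most it was highest in control library 2.

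**Figure D2:**
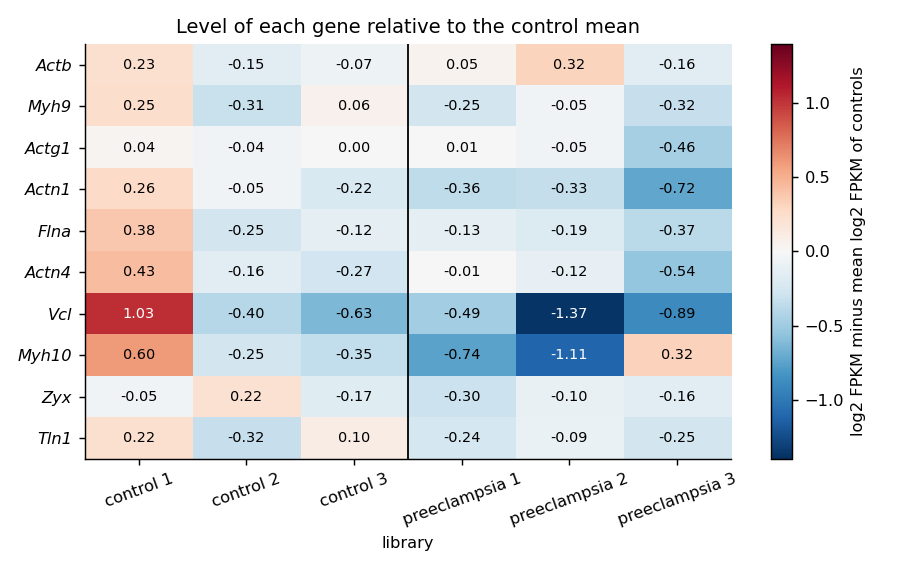
Level of each gene (rows) in each library (columns) as log2 FPKM minus the mean log2 FPKM of the 3 control libraries; red is above and blue below that mean. Control library 1 is red in every row but Zyx, most in Vcl (1.03) and Myh10 (0.60), and preeclampsia library 3 is lowest in 6 of the 10 genes.

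Most genes of the group thus had control library 1 above the rest, some by a narrow margin. In Actg1 it was at 1422 FPKM, against 1389 in preeclampsia library 1. In Tln1 it was at 189 FPKM, against 174 in control library 3. Preeclampsia library 3 was the lowest of the 6 in 6 of the 10 genes. Control library 1 was the highest of the 6 in 8 of the 10 genes, while it was the highest in 15.5% of the 788 genes with a mean of at least 100 FPKM. The 10 genes summed to 38089 CPM in that library and to 24085 to 28725 CPM in the other 5. Genes of muscle actin and smooth muscle were high there too: 13 tested genes of the 14 on that list, Acta2 and Tagln among them, summed to 24921 CPM in control library 1, to 9278 and 14659 in control libraries 2 and 3, and to 8592 to 10841 in the preeclampsia libraries; Actc1 had a value of 0 in at least 1 library. Their part in the result was not tested. The sum of the mesothelial markers was lowest in control library 1, at 13.1 CPM against 34.3 to 177 in the other 5. The summed mesenchymal (25179 CPM), macrophage (265), epithelial (50.2), endothelial (13.8) and proliferation (501) markers of control library 1 each lay within the range of the other 5.

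**Figure D3:**
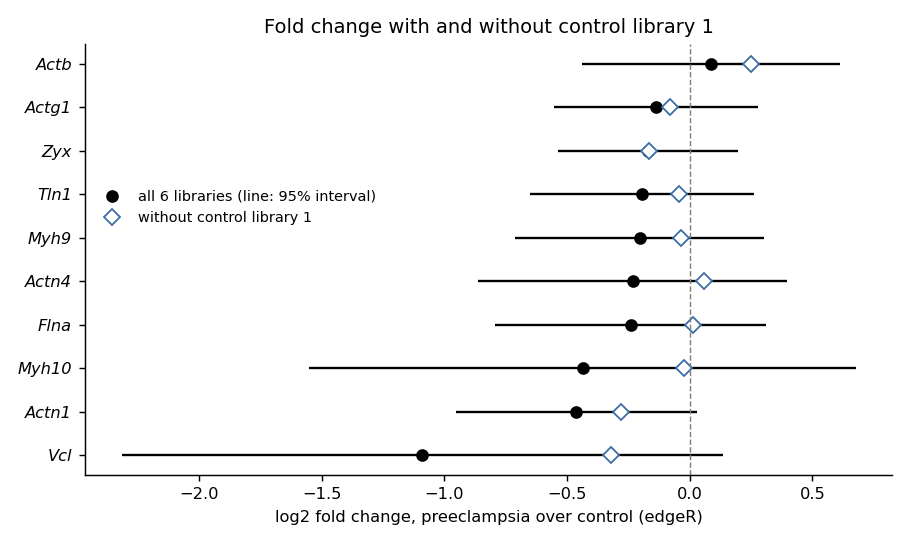
Log2 fold change of each gene, preeclampsia over control, from edgeR: filled circles with 95% intervals for all 6 libraries and open diamonds without control library 1. Every interval includes 0, and leaving out that library moves Vcl from -1.09 to -0.32 and brings Flna and Actn4 to 0.014 and 0.057.

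The genes were also compared with each other across the 6 libraries, as a description without a test. Over the 45 pairs the median Pearson correlation of log2 CPM was 0.58, and 43 were above 0. The closest pair was Myh9 and Tln1 at 0.99, followed by Flna and Actn4 at 0.93, and the lowest was Actg1 and Myh10 at -0.25. All points share the same libraries, and without control library 1 the median was 0.076 with 27 of 45 above 0. Zyx stood furthest from the others, with a median correlation of 0.14. Outside the group, the 5 genes whose log2 CPM over the 6 libraries was most like the mean of the 10 standardised profiles were Mef2d (0.98), Hspa1b (0.97), Fkbp1a (0.97), Atxn2l (0.97) and Clasp1 (0.97), out of 5360 genes compared. Of these, Mef2d, a MADS-box factor of the family to which SRF belongs, stood at 20.1, 17.7 and 18.0 FPKM in the control libraries and at 16.9, 16.6 and 15.1 in the preeclampsia libraries. These values rest on 6 points, which share the high control library 1.

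Ratios of paralogs within a library do not depend on the scaling between libraries. Actb over Actg1 was 4.32, 3.53 and 3.62 in the control libraries and 3.91, 4.92 and 4.68 in the preeclampsia libraries, as ratios of FPKM. The groups overlapped, and the mean log2 ratio was 0.24 higher in the preeclampsia group (exact two-sided permutation test, p = 0.2, 0.3 adjusted over the 3 ratios). Myh9 over Myh10 was 7.94, 9.73 and 13.4 in the control libraries and 14.2, 21.2 and 6.46 in the preeclampsia libraries. Its spread was widest within the preeclampsia group, and the difference of 0.30 in the mean log2 ratio was within it (exact permutation p = 0.6, adjusted 0.6) and was -0.078 without preeclampsia library 2. Actn1 over Actn4 was 1.68, 2.03 and 1.95 in the control libraries and 1.48, 1.62 and 1.66 in the preeclampsia libraries. Here the groups did not overlap, by a narrow gap, and the mean log2 ratio was lower by 0.25, from 0.91 to 0.67 (exact permutation p = 0.1, the smallest that 3 against 3 can give, adjusted 0.3). Given the implied lengths, the height of these ratios is uncertain: as ratios of counts, Actb over Actg1 ran from 1.85 to 2.57, Myh9 over Myh10 from 1.48 to 4.86 over the 6 libraries, and Actn1 over Actn4 from 0.693 to 0.953, below 1 in all.

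**Figure D4:**
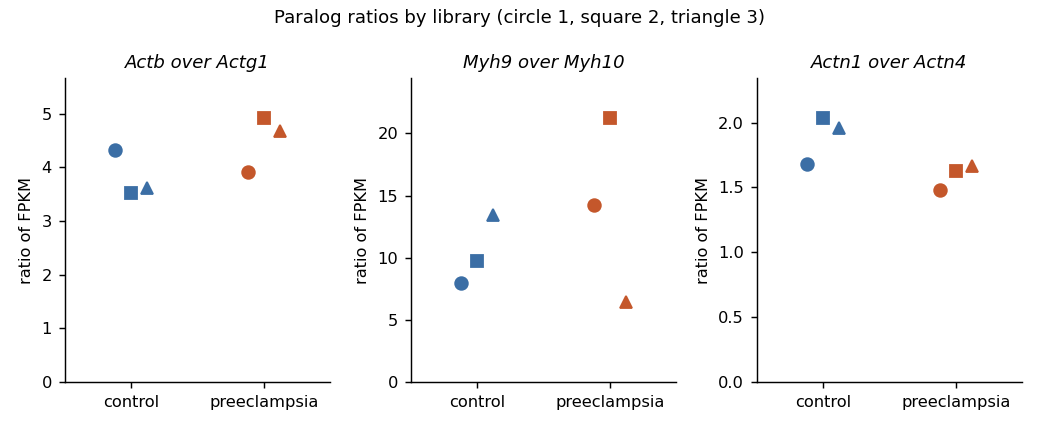
Ratio of FPKM for 3 paralog pairs in each library, on axes that start at 0, control in blue and preeclampsia in orange, with the shape giving the library number. Only Actn1 over Actn4 has all control libraries, at 1.68 or more, above all preeclampsia libraries, at 1.66 or less.

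The other genes of the pathway were described in 8 lists by role. EdgeR called 0 genes of any list over all genes tested. DESeq2 called 9, against 1.71% of all genes it tested, and 0.985% called lower. The 9 were 1 of the 26 filament-binding proteins, 2 of the 38 adaptors and kinases, 4 of the 15 integrin subunits and 2 of the 13 muscle genes. Every list but that of SRF had its highest summed CPM in control library 1, so medians are also given without it, and the counts below read against the 48.3% of all genes that were lower. The nonmuscle myosin II chains, with 4 of 5 tested, were 2 higher and 2 lower with a median log2 fold change of 0.020 (0.030 without control library 1). The regulatory light chain genes Myl9 and Myl12a averaged 467 ± 241 and 557 ± 20.3 FPKM among controls and 302 ± 88.0 and 524 ± 76.5 FPKM among preeclampsia libraries (SD, n = 3 each, control first from here on), and Myl12b 29.2 ± 6.54 and 31.1 ± 0.901. Of the 24 regulators of myosin activity, 19 were lower (median -0.22, and -0.13 without control library 1), 2 of them with an unadjusted p under 0.05, against 5.06% of all genes in that direction. These were the kinase genes Rock1 and Rock2, which raise myosin activity. Rock1 was at 68.6 ± 1.94 and 50.6 ± 8.08 FPKM (log2 fold change -0.42, SE 0.14, edgeR adjusted p = 0.473). Rock2 was at 131 ± 26.5 and 90.4 ± 15.0 FPKM (-0.53, SE 0.21, edgeR adjusted p = 0.530). In neither gene did the groups overlap.

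Of the 27 factors of actin monomers and filament turnover 19 were lower (median -0.15), 3 with an unadjusted p under 0.05. In 6, Enah and Tmsb4x among them, the groups did not overlap. Over all genes the shares in that direction were 5.06% and 8.32%. Without control library 1 the median was -0.042, with 17 of 27 lower. The smallest p was that of Enah, an elongation factor of adhesions and filopodia, at 40.2 ± 18.0 and 17.9 ± 3.06 FPKM (-1.17, SE 0.35, edgeR adjusted p = 0.470). Tmsb4x, the monomer-binding thymosin, was at 209 ± 14.9 and 149 ± 15.8 FPKM (-0.47, SE 0.14, edgeR adjusted p = 0.470). Dstn and Pfn1, the most abundant of the list, were at 638 ± 137 and 481 ± 83.9 FPKM and at 523 ± 52.7 and 573 ± 83.7 FPKM. The 26 filament-binding proteins were split, 12 higher and 14 lower (median -0.072, and 0.029 with 10 lower without control library 1), with an unadjusted p under 0.05 in 2 of each direction, against 4.13% of all genes higher and 5.06% lower. Fscn1, the bundler of filopodia, was at 133 ± 26.2 and 216 ± 63.3 FPKM (0.73, SE 0.26, edgeR adjusted p = 0.478). Pdlim5, a PDZ and LIM protein that binds alpha-actinin, was at 834 ± 255 and 525 ± 96.3 FPKM (-0.67, SE 0.26, edgeR adjusted p = 0.529), and the LIM and SH3 protein gene Lasp1 at 649 ± 69.7 and 569.98 ± 67.9. The groups did not overlap in Fscn1 and Pdlim5, as in 6.15% of all genes with higher and 8.32% with lower preeclampsia libraries.

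Of the 38 adaptors and kinases of focal adhesions 32 were lower (median -0.13), 5 with an unadjusted p under 0.05, against 48.3% and 5.06% of all genes. Of the 38, 19 were highest in control library 1, and without that library the median was -0.086 with 29 lower. Sorbs2, an adaptor of stress fibres and adhesions that binds vinculin, stood at 18.6, 10.2 and 9.12 FPKM in the control libraries and at 1.13, 0.30 and 0.24 in the preeclampsia libraries. Its groups were far apart (-4.50, SE 0.71, edgeR adjusted p = 0.313), and DESeq2 called it (adjusted p = 6.0e-11). Fhl2, a LIM-domain cofactor, was at 80.8 ± 22.4 and 33.8 ± 13.7 FPKM (-1.26, SE 0.34, edgeR adjusted p = 0.444) and was also called by DESeq2 (adjusted p = 0.038). The abundant Parva and Cav1 were at 1055 ± 235 and 899 ± 67.2 FPKM and at 289 ± 49.4 and 268 ± 138 FPKM.

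The integrin subunits, which talin engages, had the lowest median after the smooth muscle list. Of 15 tested of 17, 13 were lower (median -0.45, and -0.44 without control library 1), 8 with an unadjusted p under 0.05 and 8 with groups that did not overlap, against 5.06% and 8.32% of all genes in that direction. Itga1, the collagen-binding alpha 1 subunit, stood at 70.2, 38.8 and 74.8 FPKM in the control libraries and at 7.81, 11.1 and 16.0 in the preeclampsia libraries (-2.37, SE 0.37, edgeR adjusted p = 0.313, DESeq2 adjusted p = 5.4e-07). Itgb3, the beta chain of the vitronectin receptor, stood at 17.9, 31.2 and 28.6 FPKM and at 7.82, 7.96 and 11.9 (-1.46, SE 0.26, edgeR adjusted p = 0.373, DESeq2 adjusted p = 3.9e-04). Itgb1, the common beta chain and the most abundant of the list, was at 973 ± 132 and 707 ± 103 FPKM (-0.45, SE 0.18, edgeR adjusted p = 0.530), with groups that did not overlap, and Itgb5 was at 105 ± 44.4 and 88.4 ± 12.6 FPKM. DESeq2 also called Itga3 and Itga4, named here because they were called.

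Of SRF and its cofactors, some of which read the pool of free actin, 7 of 8 were lower (median -0.22), and 6 of 8 without control library 1 (median -0.13). Mrtfa, the actin-binding coactivator, was at 28.9 ± 1.02 and 24.2 ± 0.552 FPKM (-0.23, SE 0.092, edgeR adjusted p = 0.526). Its libraries lay close together within each group, and the groups did not overlap. Scai, a repressor of that coactivator, was at 5.503 ± 0.193 and 4.12 ± 1.10 FPKM, and the ETS cofactor gene Elk3 at 39.8 ± 10.6 and 38.6 ± 2.33. Of the muscle actin and smooth muscle genes 12 of 13 tested were lower (median -0.78, and -0.58 without control library 1). Actg2 was at 56.6 ± 39.7 and 9.63 ± 2.68 FPKM (-2.53, SE 0.55, edgeR adjusted p = 0.382) and Myh11 at 26.5 ± 21.2 and 4.14 ± 1.36 FPKM (-2.69, SE 0.80, edgeR adjusted p = 0.463). DESeq2 called both (adjusted p = 2.7e-04 and 0.010), the only 2 of the 13 it called. Acta2 was not called (DESeq2 adjusted p = 0.233), and its groups overlapped. The groups overlapped in Myh11 too, where control library 2, at 4.45 FPKM, lay below preeclampsia library 1, at 5.71. The nonmuscle paralogs Actg1 and Myh9 stood at the values above and were not called. The abundant actin-binding genes Cald1 and Tpm2 were at 2313 ± 433 and 1903 ± 171 FPKM and at 1082 ± 350 and 806 ± 231 FPKM.

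**Figure D5:**
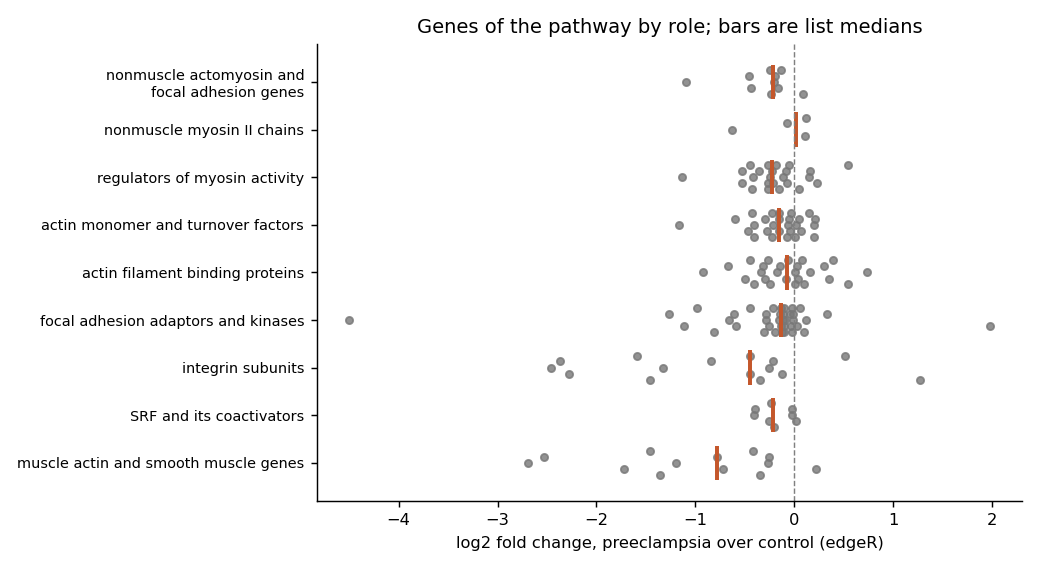
Log2 fold change, preeclampsia over control by edgeR, of each tested gene (grey points) of the 10 genes and of 8 lists of the pathway, with list medians as vertical bars. The 10 genes lie between -1.09 and 0.088, while Sorbs2 among the adaptors and some integrin subunits and muscle genes reach below -2.

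The table's own annotation gave a wider view of the pathway. Of the 10 genes, 8 carried the KEGG pathway Focal adhesion, 8 the GO term focal adhesion and 5 the GO term stress fiber. Of the 218 other tested genes of the KEGG pathway 136 were lower and 82 higher (median -0.10), and of the 66 others under stress fiber 43 were lower and 23 higher (median -0.12). Of the 352 others under the GO term focal adhesion 179 were lower and 173 higher (median -0.017). Over all genes 48.3% were lower. At least 4 of the 10 genes carried 17 terms, a rule chosen after the values were seen, and the other genes of 11 terms were more often lower and those of 6 more often higher. Among the latter were platelet aggregation (16 higher, 9 lower, median 0.14), extracellular exosome (1074 higher, 870 lower, median 0.046) and leukocyte transendothelial migration (46 higher, 44 lower, median 0.0056). EdgeR called 0 genes of these terms, which share genes with each other and with the lists above.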

How the data were processed

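Per the file headers, the deposited table gives each gene a count and an FPKM in each library, both made by the authors. FastQC, cutadapt 1.9, StringTie 2.1.6 and HISAT2 2.2.1 appear in the submitters' processing notes, with no settings. Libraries carried unique molecular identifiers, per the labels' protocols; whether reads were collapsed by them, and the genome build, are not given in the sources used here. Deposited FPKM were proportional to the counts, with a factor for the gene and another for the library (largest deviation 0.018 on the log2 scale over 2894 genes above 20 FPKM), from which the implied lengths were computed. Chromosome numbers were assigned to the table's sequence names through gene IDs in RefSeq's GRCr8 gene table; coordinates are the table's own.

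After filterByExpr and TMM scaling, counts were tested with edgeR 4.0.16 (quasi-likelihood test, group as the only term, Benjamini-Hochberg over 15776 genes, called under 0.05) in R 4.3.3. The biological coefficient of variation was 0.418, so the spread between 3 libraries per group and not the depth set the precision. List sums are TMM-scaled CPM. Correlations used log2 CPM with a prior count of 2. No libraries were duplicates (chi-square over its degrees of freedom at least 141 for every pair). Paralog ratios were tested by exact permutation in scipy 1.17.1. Promoter windows came from RefSeq, matched by gene ID. Alternatives were DESeq2 1.42.0, other filters and scalings, the replicate number as a block, left-out libraries and limma 3.58.1 on log2(FPKM + 1) and log2(FPKM + 0.1). Scripts were tested on simulated data.

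The 10 genes and the lists were chosen with earlier results of these data known. The genes named were all 10, the 5 most alike with a mean of at least 10 FPKM, and of each list, since none was called by edgeR, up to 2 with the smallest p and up to 2 with the highest mean FPKM; Itga3 and Itga4 were added after their values were seen. Some genes that the rule names are not reported here.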

Additional observations from a re-analysis of the deposited data

How the results depend on the processing

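None of the 10 genes was called under any of the 16 alternatives, the adjusted p running from 0.239, for Vcl without control library 3 and preeclampsia library 1 together, to 0.998. Over all genes edgeR called 0, with 1450 at an unadjusted p under 0.05; DESeq2 called 302, limma on log2(FPKM + 1) without a filter 1, edgeR without both of those libraries 3, and with each library left out between 0 and 2. Of 160 log2 fold changes of the 10 genes under the alternatives, 157 kept their direction. The exceptions, with a library left out, were Actb (-0.071 to 0.25; below 0 without preeclampsia library 2), Flna (-0.37 to 0.014) and Actn4 (-0.37 to 0.057, and -0.46 without control library 3 and preeclampsia library 1), both above 0 without control library 1. Vcl ranged from -1.38 to -0.32 and Myh10 from -0.99 to -0.025. The log2 ratio of Myh9 over Myh10 differed by -0.078 to 0.78 with a library left out. Among other named genes, Myl12a (-0.16 to 0.022), Parva (-0.34 to 0.019), Cav1 (-0.57 to 0.12), Itgb5 (-0.43 to 0.15) and Elk3 (-0.13 to 0.21) changed sign with a library left out, and Itgb5 (0.27) and Pfn1 (-0.0026, against 0.065 to 0.26 with 1 library left out) without control library 3 and preeclampsia library 1, where Myl12a was at -0.18 and Cav1 at -0.69. The cause was not tested. With the replicate number as a block, edgeR called 0 genes and Elk3 was at 0.0071 in place of -0.019. Deviations of same-numbered libraries correlated at 0.048, 0.041 and 0.010 across genes, so the numbers were not taken as pairs, and control library 3 correlated more with preeclampsia library 2 (0.035) than with its own number.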
